A study of Mus musculus with 12 samples.

Results

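The 10 genes described here encode the enzymes of the middle of glycolysis in mouse liver, from phosphofructokinase to enolase. They were chosen by name: Pfkl, Pfkm, Pfkp, Pfkfb1, Aldoa, Tpi1, Gapdh, Pgk1, Pgam1 and Eno1, which are 10 of the 52636 genes in the table. They fill 11 rows, because Aldoa is listed under a second identifier (ENSMUSG00000114515) whose values lie between 0 and 3; that row was too low to test, and all 10 genes were among the 16563 tested. The libraries came from 6 mice with steatotic livers, 3 wild type (WT) and 3 knocked out (KO) for Ptprk, which encodes the receptor-type protein tyrosine phosphatase kappa. The viable hepatocytes of each mouse were parted by lipid content on a Percoll gradient with differential centrifugation, so that every mouse gave a library of polyA RNA from low-fat and another from high-fat hepatocytes. Genotype and fraction thus make 4 groups of 3 libraries. Strain, age, diet and the way the knockout was made are not given in the sources used here. The title of the study names glycolysis as a process that Ptprk regulates, so the members were compared between genotypes and between fractions.

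In this stretch of the pathway, phosphofructokinase commits fructose phosphate to breakdown, aldolase splits the sugar, and the later enzymes oxidise and rearrange the fragments, yielding ATP and NADH. Phosphofructokinase and its activator, a fructose bisphosphate other than the one it makes, are the controlled step. The bifunctional enzyme of Pfkfb1 makes and removes that activator. From aldolase to enolase the reactions are reversible and also serve gluconeogenesis, so that in hepatocytes the same enzymes carry flux in either direction. Several of the genes are textbook targets of the hypoxia-inducible factor HIF-1, and Gapdh is a widely used reference gene.

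Values are reads per 20 M, the scale of the deposited table, and estimated depth was between 15.1 and 25.0 M reads per library. Summed over the 6 hepatocyte markers tested, libraries held between 418721 and 500785 reads per 20 M, against 631 to 1277 for 9 Kupffer cell markers in WT low-fat and 2160 to 10671 in WT high-fat libraries. The corresponding Kupffer sums were 450 to 722 in KO low-fat and 1976 to 9307 in KO high-fat libraries. No defining marker of Kupffer, endothelial or stellate cells was at 0 in every library. Ptprk itself was 2788 ± 83.7 in WT against 1271 ± 135 in KO low-fat libraries, and 2407 ± 209 against 1200 ± 19.3 in high-fat libraries (mean ± SD, n = 3), so reads of the targeted gene remained in KO libraries. The replicates of a group are different mice. Mice are numbered here by the replicate number in the sample titles, which for most mice differs from the animal number in the column names. Differences between groups were tested with limma on log2(value + 2) after scaling between libraries (trimmed mean of M values), and a gene was called at a Benjamini-Hochberg adjusted p under 0.05 over the 16563 genes. In such bulk libraries, fewer cells of a type and less RNA per cell cannot be told apart.

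**Figure D1:**
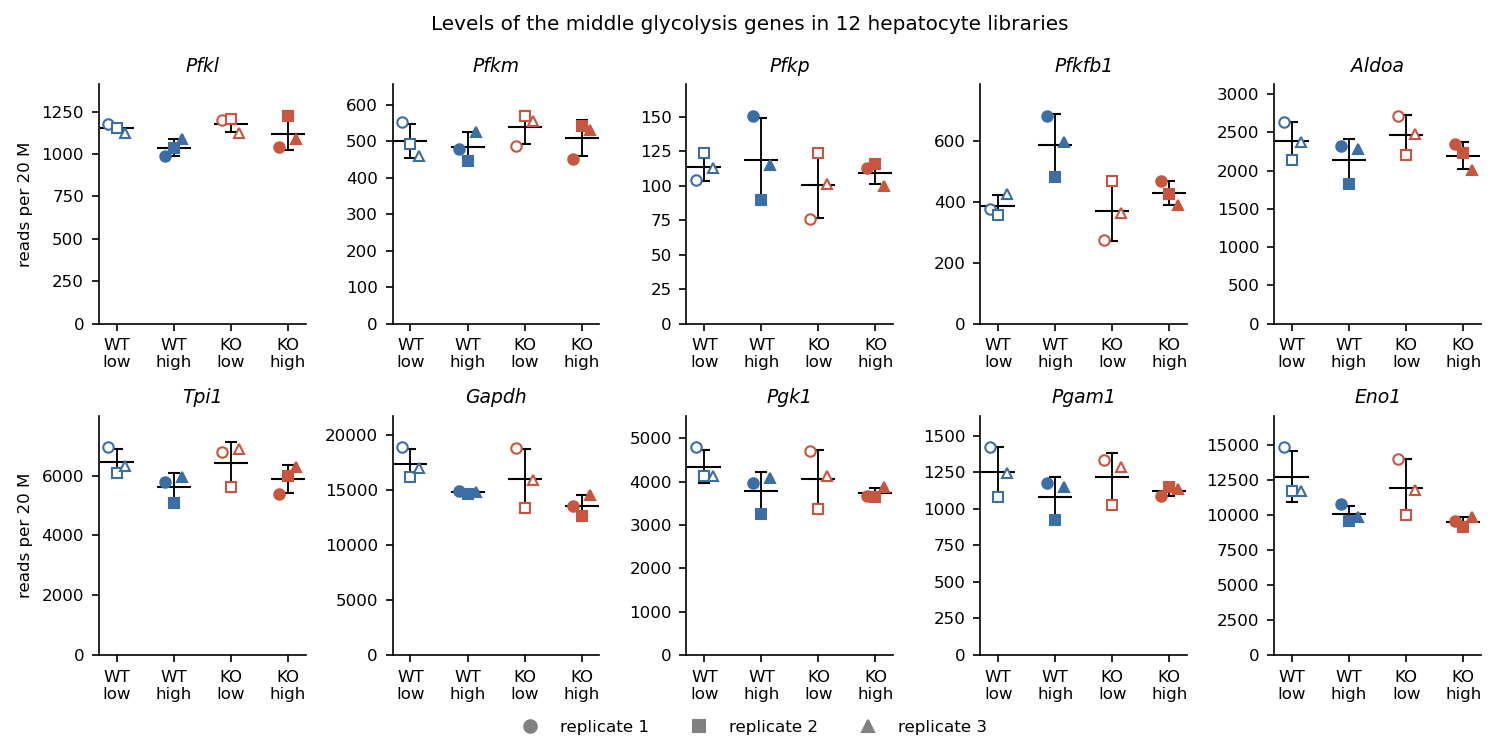
Deposited levels (y axes, reads per 20 M) of the 10 genes in the 12 libraries, by genotype and fat fraction (x axes); points are libraries, with open symbols for low-fat and filled symbols for high-fat, and horizontal marks with bars give the mean ± SD of 3 mice. Pfkfb1 is the member whose WT high-fat libraries (484 to 685) lie above those of the other 3 groups (276 to 470).

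Levels differed widely along the pathway. Per kb of exon, counted over the merged exons of GENCODE M21, the median level over the 12 libraries was 3589 reads per 20 M for Gapdh, 2194 for Tpi1, 1927 for Eno1 and 1796 for Pgk1. The ranges of Tpi1 (1846 to 2526), Eno1 (1694 to 2759) and Pgk1 (1453 to 2138) overlapped, while the lowest Gapdh library (3062) was above the highest of these. Aldoa (790.5) and Pgam1 (580.2) came next, with overlapping ranges of 626.6 to 933.7 and 466.7 to 717.5. The controlled step was lower: Pfkl had 168.3, Pfkm 152.4 and Pfkfb1 106.3 reads per 20 M per kb, with ranges that overlapped, and Pfkp had 8.43. The order of the genes and the overlaps of their ranges depend on the length used and are given for merged exons only. For Eno1 the merged exons had 5379 bases and the longest coding transcript 2027, for Tpi1 2753 and 1607, and for Pfkfb1 4017 and 1872. Unscaled by length, the members together took between 0.185% and 0.259% of a library, of which Gapdh and Eno1 made up 58.7% to 65.2%.

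Phosphofructokinase is a tetramer whose subunits come from Pfkl (the liver form), Pfkm (the muscle form) and Pfkp (the platelet form). Pfkl (ENSMUSG00000020277, chromosome 10, 77986947 to 78010083, minus strand) had 1175, 1157 and 1122 reads per 20 M in the WT low-fat libraries and 986, 1038 and 1089 in the WT high-fat libraries. It had 1200, 1205 and 1125 in the KO low-fat and 1041, 1227 and 1087 in the KO high-fat libraries. The WT fractions did not overlap, high-fat being lower, whereas KO high-fat replicate 2 was the highest library of all. Pfkm (ENSMUSG00000033065, chromosome 15, 98092589 to 98132451, plus strand) had 552, 492 and 460 in WT low-fat, 479, 445 and 526 in WT high-fat, 487, 570 and 556 in KO low-fat and 451, 543 and 530 in KO high-fat libraries. All its groups overlapped. Pfkp (ENSMUSG00000021196, chromosome 13, 6579768 to 6648777, minus strand) had 104, 124 and 113 in WT low-fat, 151, 90 and 115 in WT high-fat, 76, 124 and 101 in KO low-fat and 113, 116 and 100 in KO high-fat libraries. Its groups overlapped too, and at 75 to 161 estimated reads per library the counting error alone is about 9.13% of its level. Pitrm1, which overlaps Pfkp on the opposite strand, had 818 to 1084 reads per 20 M; whether reads were counted by strand is not given in the sources used here, so reads of the overlapping genes cannot be told apart. Other members overlap genes of lower level on the opposite strand: Senp1 (180 to 355) at Pfkm, Fam57b (297 to 490) at Aldoa, Spsb2 (286 to 409) at Tpi1 and Iffo1 (87 to 255) at Gapdh.

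Expressed as a composition per kb of merged exon, Pfkl made up between 48.9% and 54.3% of phosphofructokinase transcripts, Pfkm between 43.8% and 48.6%, and Pfkp between 1.71% and 3.73%. These levels depend on the length used: with the longest coding transcript of each gene, a choice made after seeing the data, Pfkl was 56.6% to 63.2%, Pfkm 32.8% to 37.2% and Pfkp 3.6% to 7.8%. Under both lengths Pfkl came first and Pfkp last in every library. The mean share of Pfkl differed little between groups. Pfkl took 52.2% ± 1.57 in WT low-fat, 50.4% ± 2.01 in WT high-fat, 51.2% ± 2.71 in KO low-fat and 51.1% ± 1.41 in KO high-fat hepatocytes (SD, n = 3). Of 15 exact permutation tests on isoenzyme shares (3 comparisons for each of 5 shares), none had a Benjamini-Hochberg adjusted p below 0.818. An exact test of 3 against 3 libraries cannot go below p = 0.1, and one of 6 paired mice not below 0.03125. With these limits none of the 15 tests could reach an adjusted p under 0.05. They therefore cannot decide whether the shares differ.

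**Figure D2:**
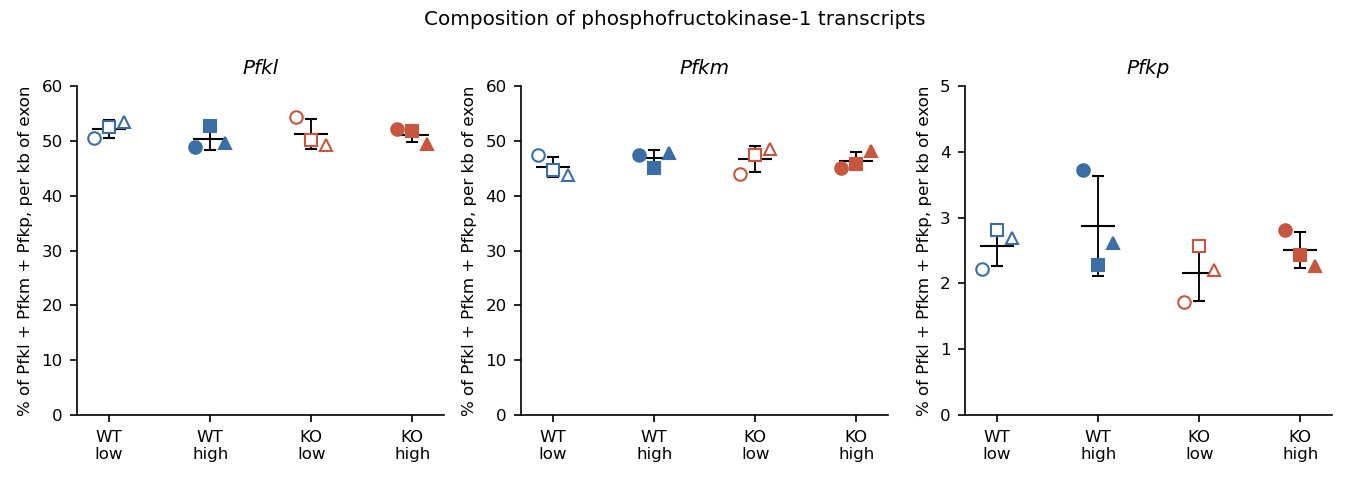
Share of each isoenzyme (y axes, % of Pfkl + Pfkm + Pfkp per kb of merged exon) by genotype and fraction (x axes); points are libraries (circle, square and triangle for replicates 1 to 3) and bars give the mean ± SD, n = 3. The Pfkp axis ends at 5, since that share stays between 1.71% and 3.73%.

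Pfkfb1 encodes the liver form of the bifunctional enzyme that sets the activator of phosphofructokinase, and it was the member with the opposite fraction pattern. The gene (ENSMUSG00000025271) lies on chromosome X, 150588229 to 150643878, plus strand. It had 379, 359 and 427 reads per 20 M in WT low-fat libraries against 685, 484 and 597 in WT high-fat libraries, with no overlap. KO low-fat libraries had 276, 470 and 364 and KO high-fat libraries 470, 427 and 392, which overlapped. Within a mouse, the log2 level in the high-fat library minus that in the low-fat library was 0.72, 0.42 and 0.38 in the WT mice and 0.54, -0.13 and 0.11 in the KO mice, so that 5 of 6 mice were higher in the high-fat fraction. The mean log2 difference over both genotypes was 0.34 (SE 0.121), with a limma adjusted p of 0.143, which does not pass 0.05. With a term for each mouse the limma adjusted p was 0.0517, and with an estimated correlation between the libraries of a mouse 0.0437. Apex2 overlaps Pfkfb1 on the opposite strand, at 619 to 897 reads per 20 M.

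Aldoa encodes the aldolase found in most tissues. The gene (ENSMUSG00000030695, chromosome 7, 126795234 to 126800751, minus strand) had 2640, 2138 and 2369 reads per 20 M in WT low-fat, 2316, 1824 and 2286 in WT high-fat, 2718, 2202 and 2473 in KO low-fat and 2350, 2225 and 2003 in KO high-fat libraries. All groups overlapped. KO low-fat replicate 1 was the highest library and WT high-fat replicate 2 the lowest.

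Tpi1, the isomerase that interconverts the products of aldolase, lies on chromosome 6 (ENSMUSG00000023456, 124810586 to 124814296, minus strand). It had 6955, 6080 and 6336 reads per 20 M in WT low-fat, 5785, 5081 and 5966 in WT high-fat, 6777, 5625 and 6894 in KO low-fat and 5376, 5999 and 6281 in KO high-fat libraries. As deposited, the WT fractions did not overlap, by a small margin (6080 against 5966), and in KO they did. After scaling between libraries the WT fractions of Tpi1 overlapped too. Gapdh (ENSMUSG00000057666, chromosome 6, 125161715 to 125166467, minus strand), the dehydrogenase that makes NADH, had 18883, 16169 and 16962 in WT low-fat and 14864, 14658 and 14799 in WT high-fat libraries. It had 18769, 13402 and 15890 in KO low-fat and 13547, 12655 and 14531 in KO high-fat libraries. The WT fractions did not overlap for Gapdh and the 3 WT high-fat libraries were close together, while KO low-fat replicate 2 lay among the KO high-fat libraries.

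Pgk1 and Pgam1 make ATP from bisphosphoglycerate and move the remaining phosphate. Their promoters are shown because both held a HIF-1 core motif and because the levels of the pair followed each other closely over the libraries. Pgk1 (ENSMUSG00000062070, chromosome X, 106187100 to 106203699, plus strand) had 4797, 4122 and 4134 reads per 20 M in WT low-fat, 3974, 3261 and 4087 in WT high-fat, 4708, 3372 and 4137 in KO low-fat and 3677, 3648 and 3873 in KO high-fat libraries. Pgam1 (ENSMUSG00000011752, chromosome 19, 41911923 to 41918660, plus strand) had 1422, 1080 and 1248 in WT low-fat, 1174, 925 and 1150 in WT high-fat, 1335, 1024 and 1287 in KO low-fat and 1086, 1150 and 1137 in KO high-fat libraries. For both genes replicate 2 was the lowest WT high-fat and the lowest KO low-fat library. As deposited, groups overlapped except the WT fractions of Pgk1, which were apart by a small margin (4122 against 4087). After scaling between libraries these overlapped too. The 250 bases before the RefSeq start (GRCm38.p6, plus strand) are chrX:106186850-106187099 for Pgk1 and chr19:41911621-41911870 for Pgam1, with ACGTG or its reverse complement CACGT in capitals:
Pgk1: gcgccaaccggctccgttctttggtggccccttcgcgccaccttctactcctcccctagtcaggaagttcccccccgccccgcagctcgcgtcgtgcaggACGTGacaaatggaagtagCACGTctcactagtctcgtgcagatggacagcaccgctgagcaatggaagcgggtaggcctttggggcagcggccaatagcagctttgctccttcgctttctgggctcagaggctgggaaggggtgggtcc
Pgam1: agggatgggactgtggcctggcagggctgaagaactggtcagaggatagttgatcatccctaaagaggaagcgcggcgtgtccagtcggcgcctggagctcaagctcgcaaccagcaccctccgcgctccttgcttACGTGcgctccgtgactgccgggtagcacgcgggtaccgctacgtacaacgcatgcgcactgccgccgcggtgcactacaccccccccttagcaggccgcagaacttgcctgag

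The Pgk1 matches begin at -150 and -131 from the start and the Pgam1 match at -114. Searched on both strands, ACGTG (the core that HIF-1 shares with the E-box CACGTG, which contains it) was in the window of at least 1 RefSeq start for 4 of the 10 members, Pfkm, Aldoa, Pgk1 and Pgam1, and in 6 of their 20 entries. Of 32851 RefSeq promoters, 16.6% held it. The alternative core GCGTG was in at least 1 entry of 7 members, against 28.2% of all promoters, and the GC box GGGCGG in at least 1 entry of 6 members, against 32.7%. Members with several starts had more chances to hold a motif. A match describes the letters of these windows only.

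Eno1 encodes the main liver enolase, which forms phosphoenolpyruvate, and of the 10 members it had the largest drop in mean level from low-fat to high-fat libraries. The gene (ENSMUSG00000063524) lies on chromosome 4, 150236721 to 150248879, plus strand. It had 14840, 11677 and 11712 reads per 20 M in WT low-fat and 10748, 9588 and 9852 in WT high-fat libraries. KO low-fat libraries had 14024, 9983 and 11811 and KO high-fat libraries 9544, 9110 and 9868. As deposited, the fractions did not overlap in WT or in KO, where the lowest low-fat library, replicate 2 with 9983, was just above the highest high-fat library. The same held for 13.9% of all genes tested in WT and 11.2% in KO. After scaling between libraries the KO fractions of Eno1 overlapped.

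Comparing fractions over both genotypes, no member was called. Mean levels were lower in high-fat hepatocytes for 8 of 10 members, and for 9703 of the 16563 genes tested. At a limma adjusted p under 0.05, 0 of 10 members passed, against 5.76% of the genes tested. At an unadjusted limma p under 0.05, 6 of 10 did (18.9% of genes), of which Pfkl, Aldoa, Tpi1, Gapdh and Eno1 were lower and Pfkfb1 higher. The mean log2 difference, high-fat against low-fat, was -0.40 for Eno1 (SE 0.111, limma adjusted p 0.0604) and -0.30 for Gapdh (SE 0.108, limma adjusted p 0.146). For Tpi1 it was -0.24, for Pgk1, Aldoa and Pgam1 -0.24, -0.24 and -0.23, for Pfkl -0.19 and for Pfkm -0.14, with limma adjusted p between 0.18 and 0.426. Pfkp stood at 0.02, a sign that turned when WT low-fat or high-fat replicate 1, KO low-fat replicate 1 or KO high-fat replicate 2 was left out (-0.01 to -0.07). The median of the 10 members was -0.23, against -0.04 for all genes tested.

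The libraries of a mouse come from the same animal, and with a term for each mouse Eno1 fell in the high-fat fraction (limma adjusted p 0.0331), while the other 9 members did not pass. In that fit 10.5% of all genes were called. In the fit without that term, leaving out KO low-fat replicate 2 gave calls for Eno1 (log2 difference -0.48, limma adjusted p 0.0191) and Gapdh (-0.38, 0.0405). That library was the lowest KO low-fat library for both genes (9983 and 13402 as deposited), so its removal widens the difference between fractions. With single libraries left out in turn, between 606 and 1123 of all genes tested were called. Leaving out both libraries of KO mouse 2, a choice made after seeing the data, gave Eno1 (-0.47, 0.0471). The plot of changes by mouse shows the differences behind these means. Eno1 was lower in high-fat than in low-fat cells of 6 of 6 mice, by log2 differences of -0.60, -0.29 and -0.35 in WT and -0.78, -0.12 and -0.25 in KO. Gapdh was likewise lower in 6 of 6 mice, by -0.48, -0.15 and -0.30 in WT and -0.70, -0.07 and -0.12 in KO. Among all genes tested, 11.7% were lower in 6 of 6 mice. At least 5 of 6 mice had lower high-fat levels for 8 of 10 members, against 31.5% of all genes; the exceptions were Pfkp (4 mice) and Pfkfb1 (1 mouse).

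**Figure D3:**
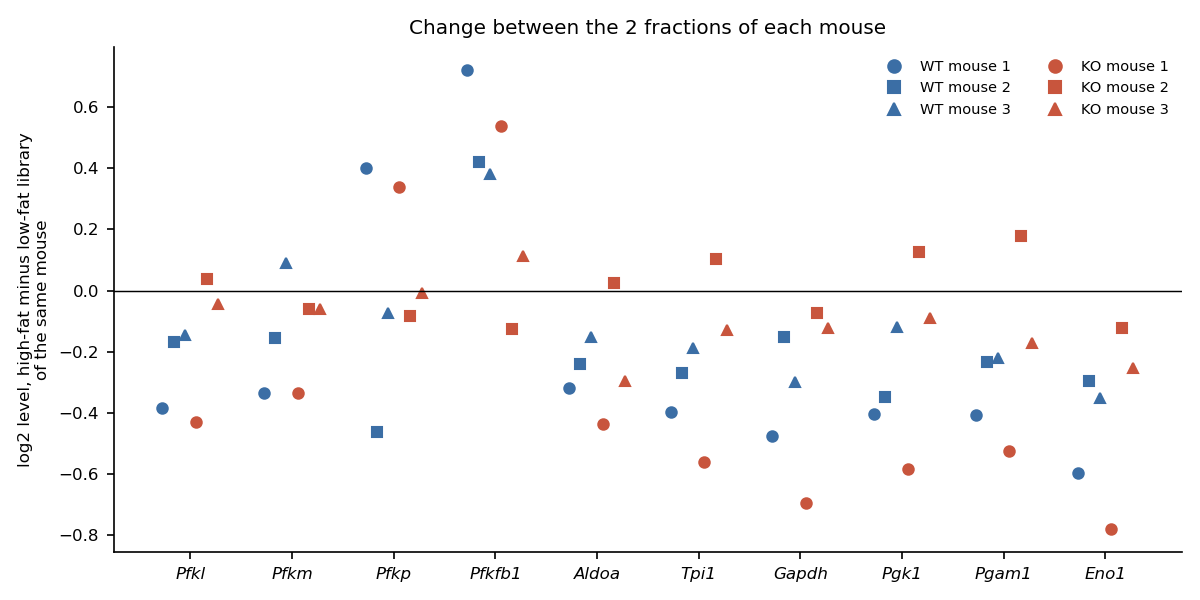
Log2 level of each gene in the high-fat library minus that in the low-fat library of the same mouse (y axis, after scaling between libraries) for the 10 genes (x axis, in pathway order); points are the 3 WT and 3 KO mice. KO mouse 1 and WT mouse 1 give the lowest points of most members, and KO mouse 2 lies near 0, with values from -0.13 to 0.18.

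The size of the difference varied by mouse in the same way for most members. The median member change was -0.39, -0.24 and -0.15 in WT mice 1 to 3 and -0.48, -0.02 and -0.11 in KO mice 1 to 3. After scaling, the first mouse of each genotype thus had the lowest median, and in KO mouse 2 5 members were lower and 5 higher. The sizes rest in part on the scaling, which divides each level by a library factor. From low-fat to high-fat library this factor went from 0.968 to 1.059, 1.033 to 1.041 and 0.936 to 1.0045 in WT mice. In KO mice it went from 0.928 to 1.085, 1.0124 to 1.0046 and 0.973 to 0.968. The order of the mice as deposited was not tested. Other measures also differed between the fractions of a mouse. The summed Kupffer cell markers were 11.1, 1.73 and 3.42 times as high in the high-fat as in the low-fat library of the WT mice, and 20.7, 3.02 and 3.08 times in the KO mice. Summed endothelial markers were 5.77, 2.81 and 2.11 times as high in WT and 8.91, 2.43 and 2.18 times in KO mice, and stellate cell markers 6.40, 7.80 and 3.52 times in WT and 19.7, 5.49 and 3.83 times in KO mice. RNAs known to be retained in the nucleus stood at 2.43, 1.01 and 1.24 times in WT and 3.35, 0.278 and 1.10 times in KO mice. Summed hepatocyte markers were between 0.845 and 1.12 times. The first mouse of each genotype had the highest ratio of Kupffer, endothelial and nuclear-retained transcripts, and KO mouse 2 was the mouse whose nuclear-retained ratio was lowest. Pericentral hepatocyte markers were 1.29 to 1.91 times and periportal markers 0.628 to 0.757 times as high in the high-fat libraries of all 6 mice. The mitochondrial share of reads was higher in the high-fat library of every mouse, going from 1.59%, 1.91% and 2.08% to 2.89%, 4.24% and 2.18% in WT and from 1.99%, 2.15% and 1.73% to 3.07%, 2.27% and 2.71% in KO mice. Summed immediate early genes stood at 1.63, 0.843 and 1.05 times in WT and 1.93, 0.677 and 0.873 times in KO mice, and summed erythroid markers at 0.596 to 0.872 times. The erythroid sum was mostly Alas2 (2051 to 3765 reads per 20 M), and the medians of Hba-a1, Hba-a2, Hbb-bs and Hbb-bt were 21.5, 9.5, 34 and 5. The part of these measures in the members' values was not tested.

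Within genotypes, no member was called between fractions. In WT mice 0 of 10 members passed an adjusted p of 0.05 in limma, as did 0% of all genes (11.5% at an unadjusted p under 0.05, and 3 of 10 members). With a term for each mouse 1.02% of genes were called, and still 0 of 10 members. As deposited, the fractions did not overlap for 6 of 10 members (13.9% of all genes), of which Pfkl, Tpi1, Gapdh, Pgk1 and Eno1 were lower (3.51%) and Pfkfb1 higher. After scaling between libraries 4 of 10 did not overlap (17.9%), Tpi1 and Pgk1 no longer among them. The WT log2 difference was -0.41 for Eno1 (SE 0.157, limma adjusted p 0.334), -0.31 for Gapdh (SE 0.152, limma adjusted p 0.468) and 0.51 for Pfkfb1 (SE 0.17, limma adjusted p 0.259). In KO mice 0 of 10 members passed, against 0.894% of all genes (2.13% with a term for each mouse, again 0 members); at an unadjusted p under 0.05 it was 1 of 10, Eno1, against 8.95%. As deposited 1 of 10 members, Eno1, had fractions that did not overlap (11.2% of all genes), and after scaling 0 of 10 (13.5%). There the log2 difference was -0.38 for Eno1, -0.30 for Gapdh and 0.18 for Pfkfb1, with limma adjusted p of 0.442, 0.67 and 0.937. The fraction effect did not differ between genotypes for any member or gene at an adjusted p of 0.05 in limma (0% of genes; at an unadjusted p under 0.05, 0 members and 0.145% of genes). For Pfkfb1 the difference between the fraction effects, KO minus WT, was -0.33 (95% confidence interval -0.86 to 0.20).

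Between genotypes, no member was called in either fraction. In low-fat libraries 0 of 10 members passed in limma, against 0.00604% of all genes, namely Ptprk; at an unadjusted p under 0.05 it was 0 of 10 members and 1.64% of genes. KO against WT log2 differences ran from -0.19 for Pfkp to 0.11 for Pfkm, with Gapdh at -0.11 and Eno1 at -0.09. The intervals were wide: for Gapdh the 95% confidence interval was -0.45 to 0.22 and for Eno1 -0.43 to 0.26. The signs of Gapdh, Eno1 and Pfkfb1 (-0.09) turned when single libraries were left out: Gapdh was 0.04 without KO low-fat replicate 2, Eno1 0.07 without that library and 0.04 without WT low-fat replicate 1, and Pfkfb1 0.07 without KO low-fat replicate 1 and 0.01 without WT low-fat replicate 3.

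In high-fat libraries 0 of 10 members passed as well, again with 0.00604% of all genes called. Pfkfb1 had the largest difference of the 10 members, at 430 ± 39.1 in KO against 589 ± 100.8 in WT libraries (reads per 20 M, SD, n = 3). Its groups did not overlap on either scale. After scaling this held for 1 of 10 members and 4.92% of all genes, and as deposited for 2 of 10, Pfkfb1 and Gapdh, and 4.51%. The log2 difference was -0.42 (95% confidence interval -0.79 to -0.05; limma unadjusted p 0.0308, adjusted p 0.9999). It was the 1 member with an unadjusted p under 0.05, as 1.97% of all genes had. All other members lay between -0.10 (Gapdh) and 0.13 (Pfkl), with intervals that included 0. Averaged over both fractions of each mouse, Pfkfb1 was at -0.25 (limma unadjusted p 0.0955), Pfkp at -0.13, Gapdh at -0.11 and Pfkl at 0.09, and 0 of 10 members were called in limma, against 0.00604% of all genes (0 of 10 and 2.23% at an unadjusted p under 0.05).

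**Figure D4:**
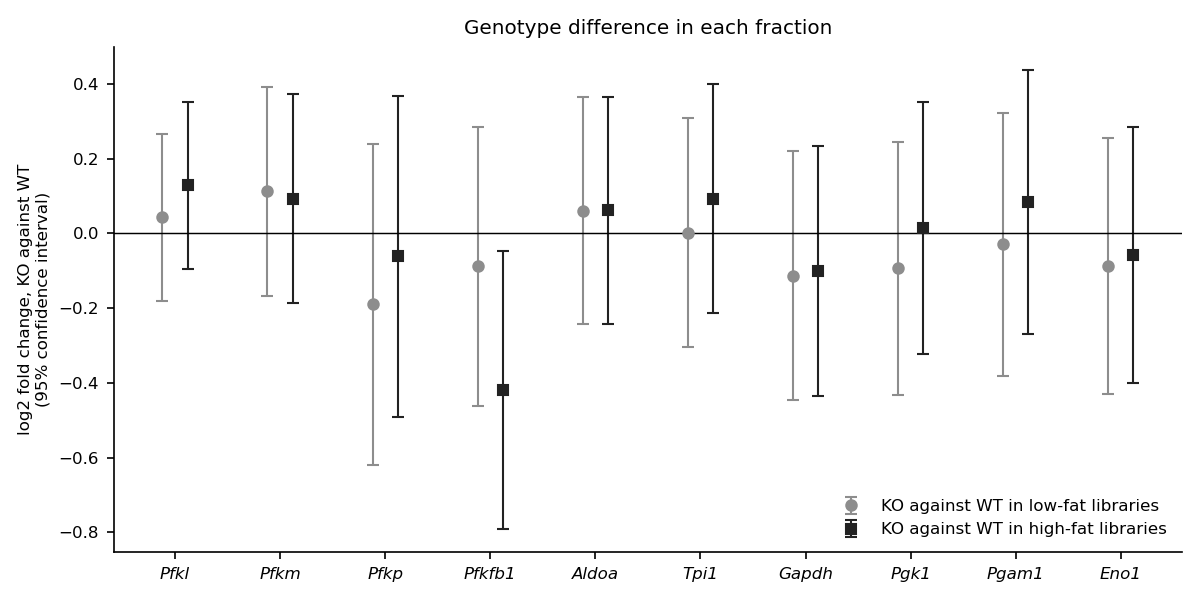
Log2 fold change of KO against WT (y axis) for the 10 genes (x axis) in low-fat (grey circles) and high-fat (black squares) libraries; bars are 95% confidence intervals of the limma fit over 12 libraries. The high-fat value of Pfkfb1, -0.42, is the point whose unadjusted interval (-0.79 to -0.05) does not reach 0.

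The rest of the pathway was examined with lists taken whole. Of 20 other glycolysis genes tested, 3 rose and 1 fell in high-fat libraries over both genotypes at an adjusted p under 0.05 in limma, and 4 rose and 3 fell with a term for each mouse. Of all genes tested, 5.76% were called without and 10.5% with that term, which is the background of the following lists too. Hk1 (log2 difference 1.5, limma adjusted p 0.0366), Hk3 (2.40, 0.0105) and Pkm (1.56, 0.0213) rose. These encode hexokinases and the pyruvate kinase of non-hepatocyte tissues. Hk1 and Hk3 were very low, with deposited values of 6 to 28 in low-fat libraries, so their rise rests on few reads. For all 3 genes replicate 1 was the highest high-fat library of both genotypes. Gpi1, the isomerase just before phosphofructokinase, fell by 0.55 (limma adjusted p 0.0288). Pklr, the liver pyruvate kinase, chosen after its values were seen, did not pass, at -0.50 (limma adjusted p 0.109), but fell with a term for each mouse (limma adjusted p 0.0131). The list's median was -0.003. The 3 genes that rose, and the Kupffer, endothelial and stellate marker sums given above, were higher in the high-fat library of every mouse. The sizes by mouse were not compared, and the part of those cells was not tested.

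Of 6 gluconeogenesis genes, Slc37a4, the glucose phosphate transporter, fell by 0.37 (limma adjusted p 0.0278) and 5 did not pass, with a list median of -0.34 and Fbp1, which opposes phosphofructokinase, at -0.40 (limma adjusted p 0.0615). With a term for each mouse, 3 of the 6 fell, Fbp1 among them (limma adjusted p 0.047), and 0 rose. Of 9 HIF-1 targets outside glycolysis, 2 rose: Adm by 1.55 and Ndrg1 by 0.96 (limma adjusted p 0.0253 and 0.0164). The list's median was 0.09. Adm was very low, with deposited values from 0 to 28 and a median of 6.5, so its rise rests on few reads per library. Deposited values of Ndrg1 ran from 51 to 228. With a term for each mouse 3 of 9 rose, Egln3 (0.31, limma adjusted p 0.031) being the third. Of 5 regulators, Mlxipl, Hif1a, Srebf1, Myc and Arnt, 0 passed, and with a term for each mouse 2 fell. Between genotypes, 0 genes of these lists passed in either fraction.

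Because Gapdh and other members serve as reference genes, their spread was set beside that of 10 common reference genes. After scaling between libraries, Gapdh had a coefficient of variation of 16.7% over the 12 libraries, and 80.7% of the 3627 genes averaging 1000 or more reads per 20 M had a lower one. Eno1 had 20.1% and Pfkfb1 22.1%, while Pfkl was the steadiest member, followed by Pfkm with 10.8%. Of the reference genes, Tbp had 7.38%, B2m 9.86%, Actb 12.4% and Gusb 14.7%, and 9 of the 10 had a lower coefficient than Gapdh. The coefficient depends on the scaling and on the groups, and as deposited that of Gapdh was 12.9%. Within groups, after scaling, Gapdh had 13.8%, below Actb (14.5%) and Gusb (15.3%). The other reference genes named here then had 7.44% (Tbp) to 12.5% (Rplp0). Gapdh was lower in high-fat than in low-fat cells of 6 of 6 mice, as Rplp0, Ywhaz and Gusb were in 5, Tbp, B2m and Ppia in 4 and Actb and Hprt in 2.

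**Figure D5:**
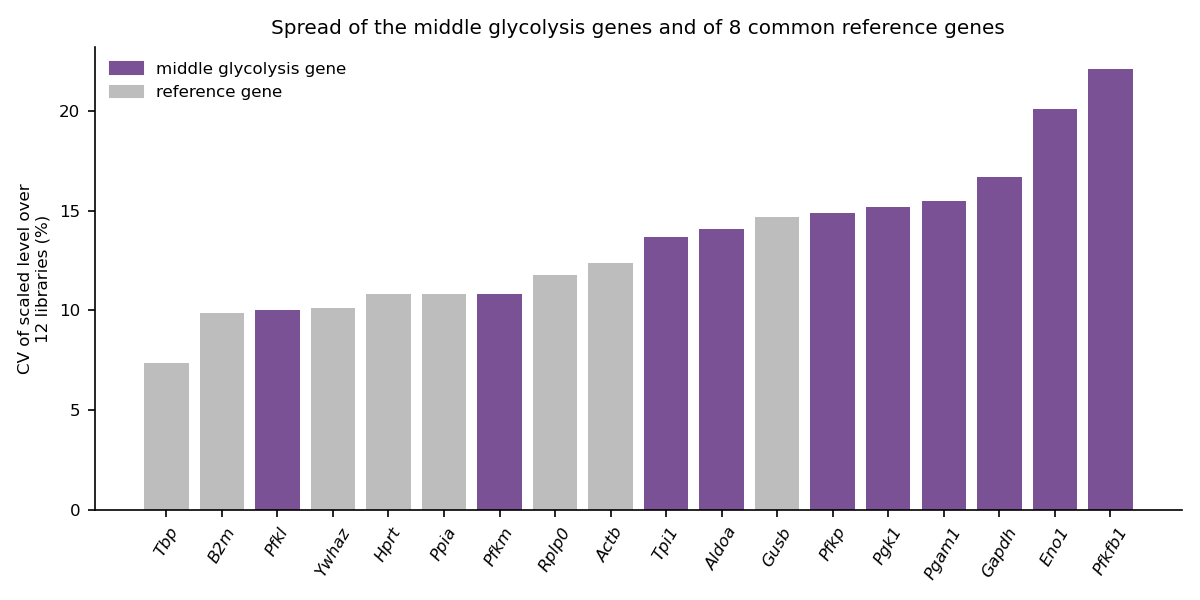
Coefficient of variation (bars, %) of the scaled level over all 12 libraries for the 10 middle glycolysis genes (purple) and 8 of the 10 reference genes (grey), ordered by size. Gapdh (16.7%) is to the right of the 8 reference genes drawn, of which Gusb (14.7%) is the highest; of all 10, 9 were below Gapdh.

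Ratios within a library need no scaling between libraries, and the following were chosen after their values were seen. Eno1 over Gapdh was lower in high-fat than in low-fat cells of 6 of 6 mice, by a mean log2 difference of -0.10 ± 0.04 (SD, n = 6). Eno1 over Tpi1 was also lower in 6 of 6 mice, at -0.16 ± 0.08. Pfkfb1 over Pfkl was higher in 5 of 6 mice, at 0.53 ± 0.48, the exception being KO mouse 2.

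Across the 12 libraries, the members from aldolase to enolase varied together. Pearson's r of their log2 levels was 0.966 for Gapdh and Eno1, 0.949 for Tpi1 and Pgam1, 0.947 for Pgk1 and Pgam1 and 0.92 for Tpi1 and Pgk1, and the lowest of the 15 pairs was Aldoa with Gapdh at 0.754. After removal of the group means these were 0.947, 0.933, 0.941, 0.913 and 0.699. For Pfkfb1, r was -0.636 (Pfkl) to -0.293 (Pfkm) with every member but Pfkp, with which it was 0.611. After removal of the group means it was -0.491 with Gapdh, -0.413 with Eno1 and -0.269 with Pgk1, between -0.184 and 0.038 with Pfkl, Tpi1, Pgam1 and Aldoa, 0.214 with Pfkm and 0.843 with Pfkp. The points share libraries, mice and scaling, so these values are descriptions. Among 10507 genes averaging 100 or more reads per 20 M, the gene most like 9 of the members, by Pearson's r over the same 12 libraries, was Serpind1 for Pfkl (0.972), Rp9 for Pfkm (0.942), Prcp for Pfkp (0.873) and Syn3 for Pfkfb1 (0.872). It was Dad1 for Aldoa (0.978), Uba1 for Tpi1 (0.982), Mdh1 for Pgk1 (0.985), Mdh2 for Pgam1 (0.975) and Lsr for Eno1 (0.979).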

How the data were processed

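Transcripts of 12 hepatocyte libraries from 6 mice were measured by RNA sequencing of polyA RNA. The deposited values are a score: the authors scaled the read counts of each library to 20 M and rounded up to whole numbers, as the values show: column totals lie between 20005960 and 20013668, and low values have the gaps or excesses that scaling whole reads leaves, from which depth was estimated. The genome build is mm9 per the submitters' processing notes; aligner, counter, annotation and strandedness are not given in the sources used here. Gene positions and exon lengths come from GENCODE M21 (GRCm38), matched by Ensembl identifier, and promoters from RefSeq (GRCm38.p6); neither is the build of the files. All 12 value columns were matched to libraries by name, and 0 were left unmapped.

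Genes reaching 10 in 3 or more libraries (16563) were tested with limma 3.58.1 in R 4.3.3, with an intensity trend, on log2(value + 2) after a trimmed mean of M values scaling over all rows. Fold changes on this scale are understated for low genes. A mean was fitted for each of 4 groups over all 12 libraries, or, for KO against WT over both fractions, on 6 mouse means; p-values are two-sided. The fit was tested on simulated data. The labels name the same mouse for both libraries of a replicate, which is the source of the pairing. Mouse numbers in the text are replicate numbers, not the animal numbers of those labels. A second fit had a term for each mouse (for KO against WT, the replicate number). The correlation of deviations within a mouse was 0.471 to 0.581 in WT (mean 0.516) and -0.0116 to 0.458 in KO (mean 0.162). Between WT and KO libraries of the same replicate number, which are different mice, its mean was 0.314 in low-fat and 0.233 in high-fat libraries. Deviations were thus shared by replicate number as well as by mouse. Isoenzyme shares were compared by two-sided exact permutation tests. Counting errors and intervals cover counting or replicate error only. Rows for named copies and pseudogenes of the members held at most 8 reads per 20 M.

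Named are all 10 members in every library, genes of the pathway lists that pass, isoenzymes of members, the gene most like each member, Ptprk and common reference genes; a few genes of these kinds are not reported here. The members and the lists were chosen with earlier results of these data known, so no p-value was adjusted over a list alone. Alternatives were other pseudocounts, filters and scalings, a term or correlation for the mouse, fits of the compared libraries only, other lengths and leaving out each library.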

Additional observations from a re-analysis of the deposited data

How the results depend on the processing

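In all settings tried, 0 of 10 members were called between genotypes, between fractions within a genotype or in the interaction. Over both genotypes, the count for the fractions was 1 (Eno1) with the replicate block, 2 (Eno1 and Pfkfb1) with a same-mouse correlation, 1 without KO mouse 2, and 0 to 2 when 1 library was left out, the 2 without KO low-fat replicate 2. Genes called there, 954, became 1731 with the replicate block, 1913 with the correlation and 606 to 1123 without 1 library (606 without KO low-fat replicate 1, 614 without KO high-fat replicate 1). Within WT, 0 became 169 with the block, 383 with the correlation, 1 with a pseudocount of 10 and 0 to 1 without 1 library. Within KO, 148 became 353 with the block, 528 with the correlation, 0 with only the compared libraries, 0 without KO mouse 2 and 0 to 80 without any 1 library. The 1 gene called between genotypes, Ptprk, was lost in high-fat libraries with only those libraries (0), and over both fractions with the block (0) or without any 1 mouse (0 to 0). The cause was not tested, beyond fewer libraries.

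Other scalings changed how many members lay below 0: from 6 to 7 for KO against WT in low-fat, from 4 to at most 5 in high-fat, and from 9 to 8 between WT fractions. Signs of the differences given in the text turned when 1 library was left out. For KO against WT in low-fat libraries, log2 differences then ranged from -0.242 to 0.0657 for Eno1 (0.0354 without WT low-fat replicate 1), from -0.246 to 0.0737 for Pfkfb1 (also 0.0139) and from -0.266 to 0.0394 for Gapdh. Between fractions Pfkp ranged from -0.0667 to 0.11 (also -0.00838, -0.057 and -0.00704). The KO minus WT share difference ranged, in percentage points, from -2.51 to 0.024 for Pfkl and from -0.668 to 0.127 for Eno1 in low-fat libraries, and in high-fat libraries from -1.34 to 0.226 for Pfkm (also 0.113), from -0.659 to 0.0676 for Pfkp and from -0.735 to 0.202 for Eno1. The high-fat minus low-fat share of Pfkm ranged from -0.0644 to 1.05. Without a length, shares were 61% to 68.1% for Pfkl, 27.1% to 31.2% for Pfkm and 4.31% to 9.34% for Pfkp. The pairing changed no other call of a member. Scaling moved the median of all genes by under 0.1 on the log2 scale. Between fractions over both genotypes that median was -0.0423 in the main scaling and 0.0316 as deposited. There 8 of 10 members stayed below 0 in each scaling. Depth limits Pfkp most, at 75 to 161 estimated reads.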
